A study of Mus musculus with 4 samples.

Results

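The genes described here set the G1 phase restriction point of the cell cycle: the D-type cyclins Ccnd1, Ccnd2 and Ccnd3, their kinases Cdk4 and Cdk6, the CDK inhibitors Cdkn1b, Cdkn2a and Cdkn2b, the retinoblastoma gene Rb1 and the transcription factor gene E2f1. They were chosen by symbol, and all 10 are among the 24444 genes of the table. Poly(A) RNA of oesophageal cells in culture, from the mouse strain C57BL/6J, was sequenced in 4 libraries. The 2 wild-type libraries came from untreated cells with no CRISPR/Cas9 cassette. The 2 E79Q libraries came from cells labelled HET (heterozygous), with the CRISPR/Cas9 cassette Nfe2l2-E79Q and the treatment given as CRISPR/Cas9 microinjection. Nfe2l2 encodes NRF2, the transcription factor of antioxidant genes, and E79Q is a tumour-derived substitution in it. All 4 column names carry the word SV40, which the labels do not explain. The sources used here give no age, no Cre driver, and no word on whether a culture was a clone or a pool of animals. Nothing in the labels says that the 2 libraries of a genotype came from separate cultures, so p-values measure only the spread between these libraries, which may be technical.

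Cyclin D bound to CDK4 or CDK6 phosphorylates RB, and phosphorylated RB releases E2F transcription factors, which switch on genes of DNA replication. INK4 proteins bind CDK4 and CDK6 and block them, whereas CIP/KIP proteins bind cyclin-CDK complexes and chiefly block CDK2. The large T antigen of SV40 binds RB and its relatives p107 and p130, and also p53. That binding takes place between proteins and is not measured by RNA levels. In stratified epithelium such as that of the oesophagus, basal cells divide and leave the cycle as they differentiate.

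E79Q cells had more RNA of Ccnd2, Ccnd1 and Rb1 and less of Cdkn2a, Cdk4 and Cdkn1b than wild-type cells. Values are deposited variance-stabilised values on a log2 scale, and differences are E79Q minus wild type as the mean of 2 replicate pairs ± the moderated SE from limma. A gene was called at a Benjamini-Hochberg adjusted p under 0.05 over 10857 genes tested. All 10 genes were tested, with 3 called higher, 3 called lower and 4 not called. Over all genes tested, 40.4% were called, 21.5% higher and 18.9% lower. The counts in every list below stand beside these shares. The called differences among the 10 genes lay between 0.19 and 0.48 in size, against a median of 0.25 for all called genes. The median difference of the 10 was -0.02, beside 0.01 for all genes tested. In 9 of the 10 the values of the 2 genotypes did not overlap, as in 79.2% of genes tested. Gene by gene, the deposited values had been centred by replicate number. The 2 libraries of a genotype therefore deviate as a mirror image of those of the other, and part of their closeness comes from the centring. For the same reason, leaving out either library of a pair gives one and the same estimate, so such a pair of omissions is 1 result. A fit without the replicate block counts 2 residual degrees of freedom, of which the centring had used up 1, and so overstates the precision. The fits that leave out 1 library also had no block, on values already centred, and overstate the precision too. Calls gained in any of these fits carry this limit. In these bulk samples, fewer cells of a type and less RNA per cell cannot be told apart.

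**Figure D1:**
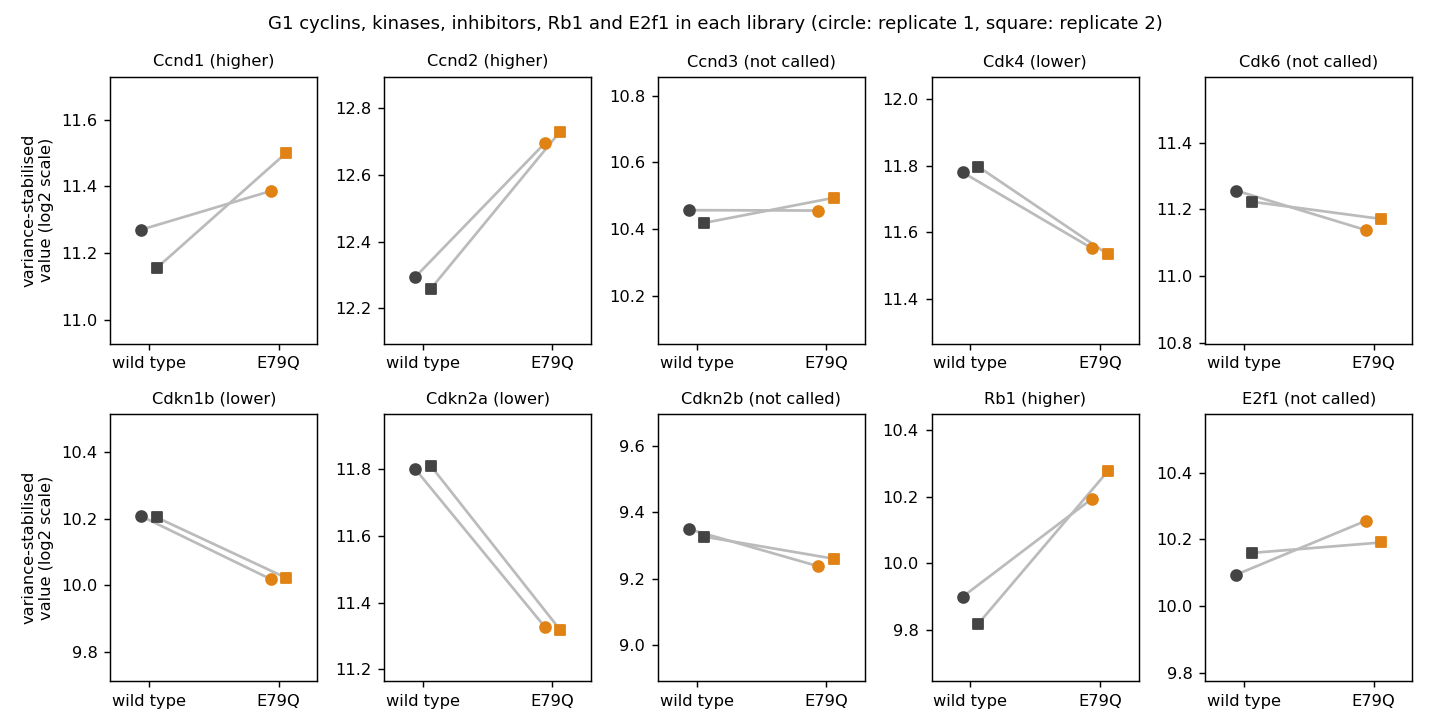
Deposited values (log2 scale, y axis) of the 10 genes in wild-type (grey) and E79Q (orange) libraries, with circles for replicate 1, squares for replicate 2 and lines joining each pair; every panel spans the same range. Ccnd1, Ccnd2 and Rb1 are higher in both E79Q libraries, Cdkn2a, Cdk4 and Cdkn1b are lower in both, and the genotypes overlap in Ccnd3.

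The 3 D-type cyclins, which link growth signals to CDK4 and CDK6, differed unequally. Ccnd2 had values of 12.29 and 12.26 in wild-type cells, against 12.69 and 12.73 in E79Q cells. Both E79Q libraries were above both wild-type libraries, and Ccnd2 rose by 0.44 ± 0.05 (limma adjusted p = 1.64e-06), a 1.37-fold ratio of normalised counts. Counts recovered from these values were 4770 and 4648 in wild type and 6380 and 6546 in E79Q.

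Ccnd1, the D-type cyclin often amplified in squamous cancers, had values of 11.27 and 11.16 in wild-type cells, against 11.39 and 11.50 in E79Q cells. The groups did not overlap, but the rise was uneven, 0.12 in pair 1 and 0.35 in pair 2. The mean rise was 0.23 ± 0.06 (limma adjusted p = 0.00393, 1.19-fold). Without the replicate block it was not called (limma adjusted p = 0.0572). Ccnd3 had values of 10.46 and 10.42 in wild-type cells, against 10.46 and 10.49 in E79Q cells, with pair differences of -0.0011 and 0.08. It was not called (0.04 ± 0.05, limma adjusted p = 0.610). Whether the difference of Ccnd2 or Ccnd1 exceeds that of Ccnd3 was not tested.

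The kinase partners were lower or not called. Cdk4 had values of 11.78 and 11.80 in wild-type cells, against 11.55 and 11.53 in E79Q cells. Both pairs agreed, by -0.23 and -0.26, and Cdk4 fell by 0.25 ± 0.05 (limma adjusted p = 0.000629), to a 1.20-fold lower normalised count. Cdk6, the other kinase of cyclin D, had values of 11.26 and 11.22 in wild-type cells, against 11.14 and 11.17 in E79Q cells. Its groups did not overlap, but the difference of -0.09 ± 0.05 was not called (limma adjusted p = 0.182). In the fit without the block, which overstates the precision, Cdk6 was called lower (limma adjusted p = 0.0434). The calls for Ccnd1 and Ccnd2 and that for Cdk4 thus had opposite signs.

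Cdkn2a had the largest difference in size of the 10 genes. It encodes 2 unrelated proteins from separate first exons, the CDK4 and CDK6 inhibitor p16Ink4a and p19Arf, which stabilises p53 by binding MDM2. The table holds 1 value per gene, so it does not separate them. The starts of the p19Arf and p16Ink4a transcripts are shown because the value adds up RNA from both promoters. The sequences are from RefSeq (GRCm38.p6, a different build from the mm9 named for these data) and are read along the gene's strand, the minus strand. The first is chr4:89294691-89294738 and lies upstream of the p19Arf start, with an E2F motif in capitals. The second is chr4:89282234-89282282 and lies upstream of the p16Ink4a start, with capitals for letters that match the NRF2 antioxidant response element on the opposite strand.

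Cdkn2a upstream start: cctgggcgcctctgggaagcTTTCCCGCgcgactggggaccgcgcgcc
Cdkn2a downstream start: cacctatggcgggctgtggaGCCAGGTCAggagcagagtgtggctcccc

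Cdkn2a had values of 11.80 and 11.81 in wild-type cells, against 11.33 and 11.32 in E79Q cells. Both E79Q libraries were below both wild-type libraries, and Cdkn2a fell by 0.48 ± 0.05 (limma adjusted p = 8.24e-07). Recovered normalised counts were 3323 and 3347 in wild type and 2325 and 2308 in E79Q, 1.44-fold lower. Cdkn2b, its neighbour in the RefSeq annotation (GRCm38.p6), encodes p15Ink4b, an INK4 inhibitor induced by TGF-beta. It had values of 9.35 and 9.33 in wild-type cells, against 9.24 and 9.26 in E79Q cells. The groups did not overlap, but the difference of -0.09 ± 0.06 was not called (limma adjusted p = 0.272, and 0.0279 without the replicate block).

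Cdkn1b encodes p27Kip1, which binds CDK2 complexes and also helps to assemble cyclin D with its kinases. It had values of 10.21 and 10.20 in wild-type cells, against 10.02 and 10.02 in E79Q cells. It was lower in both E79Q libraries, and fell by 0.19 ± 0.05 (limma adjusted p = 0.0137, 1.18-fold lower). Much control of p27 is exerted on protein stability, which RNA does not measure.

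The other INK4 genes, Cdkn2c and Cdkn2d, were lower in both pairs, Cdkn2d without a call. The other CIP/KIP genes, Cdkn1c and Cdkn1a, did not share one direction. Of all 7 CDK inhibitor genes tested, Cdkn2a, Cdkn2b and Cdkn1b among them, 3 were called lower, 1 higher and 3 were not called. Their median difference was -0.17, beside 0.01 for all genes tested. Cdkn2c, the INK4 gene of p18, had values of 9.54 and 9.59 in wild-type cells, against 9.20 and 9.15 in E79Q cells, and fell by 0.39 ± 0.06 (limma adjusted p = 0.000135). Cdkn2d, the INK4 gene of p19Ink4d, was at -0.17 ± 0.08 (limma adjusted p = 0.0864). It was called lower with no mean-variance trend (limma adjusted p = 0.0461). Without replicate 1 of wild type or of E79Q, its difference was -0.21.

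Cdkn1c, the CIP/KIP gene of p57 and an imprinted gene, was the inhibitor called higher. It had values of 8.01 and 8.09 in wild-type cells, against 8.41 and 8.33 in E79Q cells, a rise of 0.32 ± 0.07 (limma adjusted p = 0.00307). The scale compresses genes near its floor of 6.98, and as a ratio of normalised counts the rise of Cdkn1c was 1.73-fold. Cdkn1a, the p53 target gene of p21, had values of 11.33 and 11.20 in wild-type cells, against 11.15 and 11.28 in E79Q cells. Its pairs differed in opposite directions, -0.17 and 0.09, and it was not called (-0.04 ± 0.06, limma adjusted p = 0.580).

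**Figure D2:**
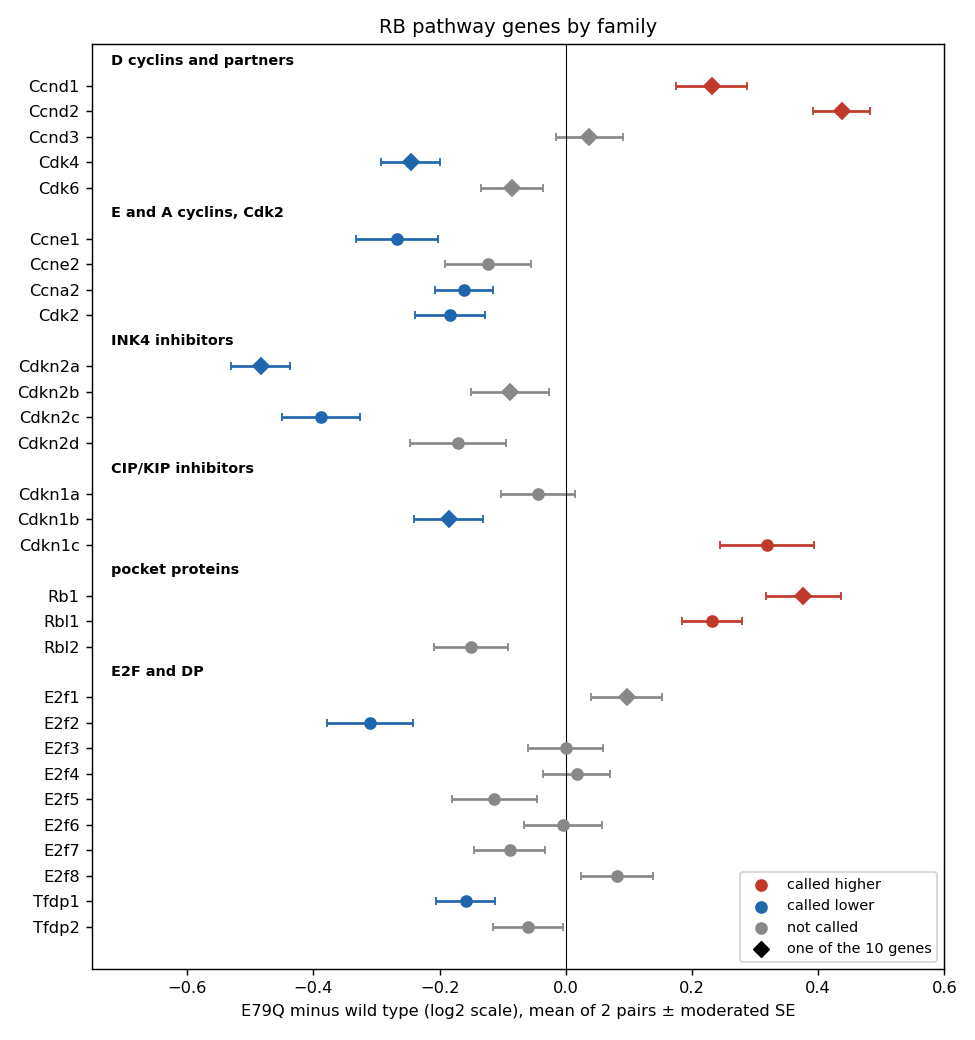
E79Q minus wild-type difference (log2 scale, x axis) of each tested gene in the families of the RB pathway, as the mean of 2 pairs with bars of ± 1 moderated SE; diamonds are the 10 genes chosen by symbol and colours give the call. Cdkn2a and Cdkn2c lie furthest to the left at -0.48 and -0.39, and Ccnd2 and Rb1 furthest to the right at 0.44 and 0.38. The scale compresses genes near its floor. By normalised counts the largest fall shown was that of E2f2 (1.54-fold, against 1.44-fold for Cdkn2a). The largest rise was that of Cdkn1c (1.73-fold).

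Rb1 encodes the pocket protein that restrains E2F until it is phosphorylated. It had values of 9.90 and 9.82 in wild-type cells, against 10.19 and 10.28 in E79Q cells. Both E79Q libraries were above both wild-type libraries, with pair differences of 0.29 and 0.46. Rb1 rose by 0.38 ± 0.06 (limma adjusted p = 0.000111), a 1.39-fold ratio, from counts of 720 and 668 to 933 and 1001. Of its relatives, Rbl1 (p107) had values of 11.21 and 11.21 in wild-type cells, against 11.44 and 11.44 in E79Q cells, and rose by 0.23 ± 0.05 (limma adjusted p = 0.00121). Rbl2 (p130), the pocket protein of resting cells, had values of 9.91 and 9.87 in wild-type cells, against 9.71 and 9.76 in E79Q cells.

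The lower values of Rbl2 in both E79Q libraries were close to the threshold and were not called (-0.15 ± 0.06, limma adjusted p = 0.0502). Rbl2 was called lower without the replicate block (limma adjusted p = 0.0233), after median centring (0.0319) and after quantile normalization (0.0247). Its difference was -0.13 without replicate 1 of wild type or of E79Q and -0.17 without replicate 2 of either.

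E2f1, an activating E2F that is itself an E2F target, had values of 10.09 and 10.16 in wild-type cells, against 10.26 and 10.19 in E79Q cells. The groups did not overlap, but the pairs differed by 0.16 and 0.03, and the mean of 0.10 ± 0.06 was not called (limma adjusted p = 0.192). Its difference was 0.13 when replicate 2 of wild type or of E79Q was left out, which is 1 estimate. The 13 pocket protein, E2F and DP genes had a median of -0.0039. Of them, 2 were called higher and 2 lower, beside 21.5% and 18.9% over all genes tested. The count was 7 without the replicate block, 3 higher and 4 lower. E2f2, another activating E2F, had values of 8.72 and 8.71 in wild-type cells, against 8.40 and 8.41 in E79Q cells, and fell by 0.31 ± 0.07 (limma adjusted p = 0.00195). Tfdp1, the DP1 partner that E2F proteins need to bind DNA, fell by 0.16 ± 0.05 (limma adjusted p = 0.0136). E2f3, E2f4, E2f5, E2f6, E2f7, E2f8 and Tfdp2 were not called, with differences from -0.11 to 0.08. Of these, E2f5 was called lower (limma adjusted p = 0.0134) and E2f8 higher (0.0291) without the replicate block.

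**Figure D3:**
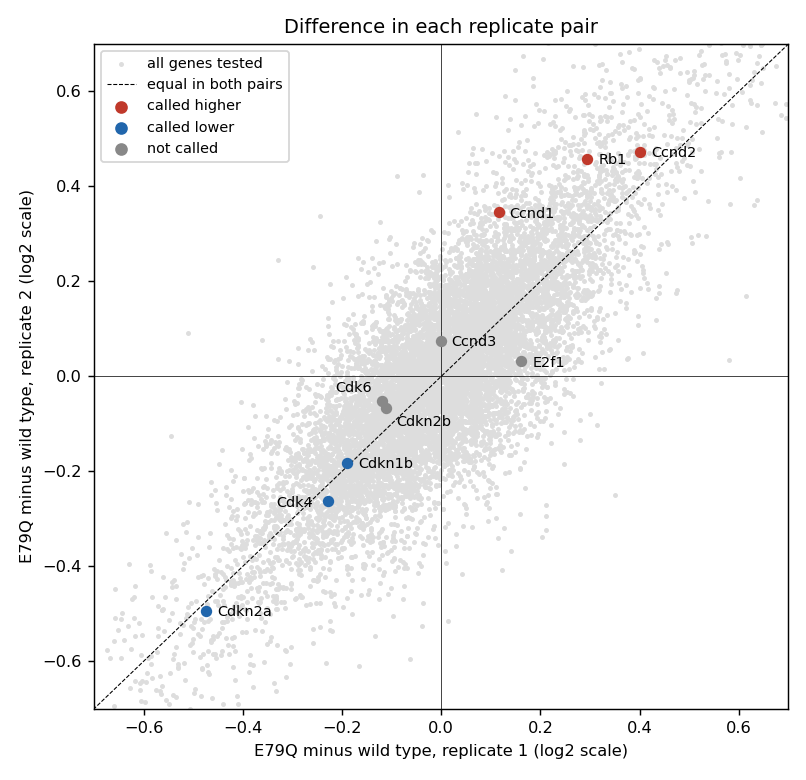
E79Q minus wild-type difference in replicate 1 (x axis) and replicate 2 (y axis), both on the log2 scale, for the 10 genes (coloured by call) over all genes tested (light grey; some lie beyond the axes). Cdkn2a, Cdk4 and Cdkn1b lie near the dashed line of equal differences, whereas Ccnd1 and Rb1 differ more in replicate 2.

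Cyclins E and A act with CDK2 after cyclin D. Ccne1, a cyclin E gene, had values of 9.21 and 9.17 in wild-type cells, against 8.90 and 8.94 in E79Q cells, and fell by 0.27 ± 0.06 (limma adjusted p = 0.00398, 1.35-fold lower). Cdk2 fell by 0.18 ± 0.06 (limma adjusted p = 0.0156) and Ccna2, the cyclin of S phase and G2, by 0.16 ± 0.05 (limma adjusted p = 0.0109). Ccne2 was not called (-0.12 ± 0.07, limma adjusted p = 0.166), and was at -0.17 when replicate 2 of wild type or of E79Q was left out. In the whole list of G1/S cyclins, CDKs and the CDK-activating kinase, 2 of 13 genes were called higher, both of them D cyclins, and 4 lower.

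Of 35 tested genes that E2F drives at the start of S phase, 11 were called lower, 2 higher and 22 were not called, beside 18.9% called lower and 21.5% higher over all genes tested. Their median difference was -0.07, beside 0.01 for all genes tested. The fit with no replicate block called 20, 16 lower and 4 higher. Mcm7, a subunit of the replicative helicase, had values of 11.85 and 11.89 in wild-type cells, against 11.54 and 11.50 in E79Q cells, and fell by 0.35 ± 0.05 (limma adjusted p = 2.69e-05). Tyms, thymidylate synthase, had the largest fall of the list, to 0.61 of the wild-type normalised count. The genes called higher were Cdca7 (0.29 ± 0.06), which was not called without the replicate block (limma adjusted p = 0.0582), and Cdt1, a licensing factor named here after its value was seen (0.23 ± 0.05). The list of the MuvB core, which joins pocket proteins or B-MYB at cell cycle genes, B-MYB and FOXM1 had 1 higher and 1 lower of 7. The lower count ranged from 0 with no mean-variance trend to 2 without the block, after either scaling and without any 1 library. Lin54, its DNA-binding subunit, had values of 10.09 and 10.05 in wild-type cells, against 10.44 and 10.48 in E79Q cells, and rose by 0.38 ± 0.05 (limma adjusted p = 4.42e-05). Foxm1, a transcription factor of mitotic genes, fell by 0.15 ± 0.05 (limma adjusted p = 0.0198), but was not called with no mean-variance trend (0.0526).

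Of 9 transcription factors listed as inducers of Ccnd1 transcription, 6 were called higher, 2 lower and 1, Stat3, was not called (-0.03), with a median of 0.62. Fosl1, the AP-1 subunit FRA1, had values of 7.94 and 7.63 in wild-type cells, against 9.02 and 9.33 in E79Q cells, and rose by 1.39 ± 0.11 (limma adjusted p = 5.02e-08). Its recovered counts were 58.1 and 25.9 in wild type and 297 and 416 in E79Q. The ratio was 8.49-fold, and 13.8-fold without wild-type replicate 1. Myc had values of 10.73 and 10.54 in wild-type cells, against 11.53 and 11.72 in E79Q cells, a 2.15-fold ratio. Fos had values of 9.90 and 9.64 in wild-type cells, against 10.79 and 11.05 in E79Q cells, a 2.65-fold ratio. The genes called lower, both named after their values were seen, were Ctnnb1, the gene of beta-catenin (-0.20 ± 0.04), and Ets1 (-0.14 ± 0.05). Ets1 was not called with no filter (limma adjusted p = 0.0798) or with no mean-variance trend (0.0791). Immediate early genes such as Fos also respond to the handling of cells, and the part of handling here was not tested.

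Regulators of the Cdkn2a locus and of Cdkn1b transcription were mixed. Of 16 tested, with a median of 0.0036, 3 were called higher and 2 lower, beside 21.5% and 18.9% over all genes tested. The lower count was 1 with no filter, 1 with the stricter filter and 4 after quantile normalization. Of the 19 listed, Tbx2, Tbx3 and Id1 were too low to test. Kdm6b, a demethylase of the Polycomb mark H3K27me3, had values of 10.41 and 10.31 in wild-type cells, against 10.78 and 10.88 in E79Q cells, and rose by 0.47 ± 0.06 (limma adjusted p = 1.02e-05). Dmtf1, an activator of the p19Arf promoter, rose by 0.20 ± 0.05 (limma adjusted p = 0.00987), and Cbx2, a Polycomb subunit, fell by 0.20 ± 0.06 (limma adjusted p = 0.0184).

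Of 13 genes for the ubiquitin turnover of cyclins D and E and of p27, 4 were called lower and 0 higher by limma, with 0 higher also at an unadjusted p under 0.05 and a median of 0.02. With no replicate block 9 were called, 5 lower and 4 higher, and 1 was called higher when replicate 1 of wild type or of E79Q was left out. Fbxo31, an F-box gene for cyclin D1 turnover, fell by 0.31 ± 0.06 (limma adjusted p = 0.000748), Ddb1, an adaptor of CUL4 ligases, by 0.28 ± 0.04 (0.000112), and Cul4b by 0.16 ± 0.05 (0.0228). Skp2, the F-box gene for p27 turnover, was not called (-0.14 ± 0.06, limma adjusted p = 0.104) and is named here after its value was seen. Its difference was -0.18 when replicate 2 of wild type or of E79Q was left out.

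Because large T antigen also binds p53, p53 and its targets were counted. Of 14 tested, with a median of -0.0024, 1 was called higher and 4 lower, beside 21.5% and 18.9% over all genes tested. Without the replicate block 8 were called, 3 higher and 5 lower. Trp53inp1 fell by 0.50 ± 0.05 (limma adjusted p = 2.40e-06), Sesn1 by 0.37 ± 0.07 (0.000568) and Phlda3 by 0.32 ± 0.05 (0.000174). Without replicate 1 of wild type or of E79Q, 3 of the 14 were called higher. No row of the table is named for SV40, and the presence of large T antigen was not tested.

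**Figure D4:**
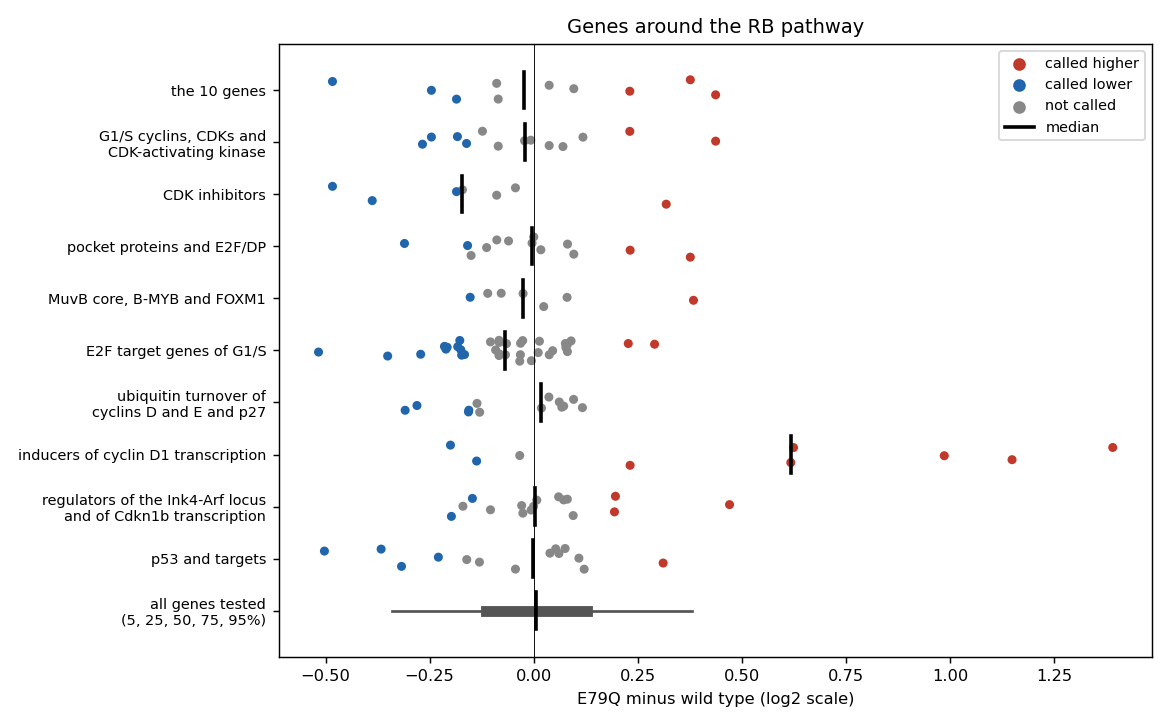
E79Q minus wild-type difference (log2 scale, x axis) of every tested gene in each list (points, coloured by call, spread vertically for visibility), with the list's median as a bar; the lowest line shows the 5, 25, 50, 75 and 95% points of all genes tested. The inducers of cyclin D1 lie furthest to the right with a median of 0.62, and the CDK inhibitors have a median of -0.17.

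Promoter letters of the 10 genes were compared with those of all genes. Promoter windows of 300 bases, from 250 before to 50 after each start, were found in RefSeq (GRCm38.p6) for 7 of the 10 genes, 9 windows in all, and not for Ccnd1, Ccnd2 and Rb1, the 3 genes called higher. The E2F motif (TTTCCCGC, TTTCGCGC, TTTGCCGC or TTTGGCGC, either strand) was in 1 of the 9, the upstream Cdkn2a window shown above, and in 2.26% of 32851 windows of the table. The core of the NRF2 antioxidant response element (TGACNNNGC, either strand) was in 4 of the 9, belonging to Cdkn2a, Cdk4, Cdkn1b and Ccnd3, and in 12.4% of all windows. The E2F motif and the response element did not overlap in any of them. The Cdk4 matches, in capitals, are at chr10:127063285-127063320 and chr10:127063382-127063430 on the plus strand. They are shown because Cdk4 alone had more than one. The second is read on the opposite strand.

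Cdk4 first match: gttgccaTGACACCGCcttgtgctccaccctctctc
Cdk4 second match: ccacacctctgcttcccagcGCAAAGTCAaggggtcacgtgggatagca

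Such a match is a run of letters and not a measured site. With no window for the genes called higher, matches cannot be set against the direction of change. The window of E2f1 held neither motif, which says only that those letters are not in it.

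Other features of the cultures moved with the genotype. Of the 8 squamous epithelial markers all were tested, with a summed normalised count between 113821 and 124459 in the 4 libraries, a sum to which Krt5 (15.79 to 15.85) and Krt14 gave most. Within the list Krt15 (-0.58 ± 0.07), Sox2 (-0.45 ± 0.06) and Krt14 (-0.13 ± 0.05) were called lower and Krt13 (0.49 ± 0.07) higher. Krt14 lost its call in 6 of 12 alternatives. Summed muscle markers, 2 of 5 high enough to test, were 978 and 1021 in wild type and 310 and 290 in E79Q. Acta2 gave most of the sum, with 859 and 880 in wild type and 259 and 250 in E79Q, and Tagln was lower too. Des, Myh11 and Cnn1 were near the floor, with Des and Myh11 higher in both E79Q libraries and Cnn1 lower. Summed fibroblast markers, 2 of 8 high enough to test, were 968 and 972 in wild type and 813 and 826 in E79Q, with Lum at the floor in all libraries. Of those tested, Col1a1 fell by 1.29 ± 0.07, 7.82-fold by normalised counts, and Fbln1 rose by 0.26 ± 0.06, 1.27-fold. Of 5 immune markers Ptprc, Cd3e, Adgre1 and Cd79a were at the floor in all libraries, and Cd68 alone gave sums of 184 and 164 in wild type and 370 and 405 in E79Q. No endothelial marker of 4 was high enough to test, with sums from 10.7 to 23.1. The part of these markers in the results for the 10 genes was not tested.

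Sex-linked genes, looked at after Xist had been seen to differ, showed a further difference between the cultures. Xist, transcribed from an inactive X chromosome, had values of 11.99 and 12.17 in wild-type cells, against 7.30 and 7.12 in E79Q cells. The 4 Y-linked genes Ddx3y, Eif2s3y, Kdm5d and Uty lay between 8.73 and 10.19 in the 4 libraries, and Ddx3y and Uty were called higher in E79Q. Kdm5d was called higher without the replicate block (0.13, limma adjusted p = 0.00779), and its difference was 0.14 without replicate 2 of wild type or of E79Q. Both wild-type libraries thus held RNA of Xist and of Y-linked genes. A difference in the sex or source of the cultured cells and the genotype cannot be told apart. Nfe2l2 itself was not called (-0.10 ± 0.05, limma adjusted p = 0.154), and being a substitution, E79Q is not checked by its level. Nfe2l2 was called lower after quantile normalization (limma adjusted p = 0.0496), and its difference was -0.15 without replicate 2 of wild type or of E79Q.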

How the data were processed

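RNA from 2 wild-type and 2 E79Q libraries was analysed, grouped and numbered as their titles say. A design text that describes a human cell line goes against all sample labels and was not followed. Per the submitters' processing notes the tools were STAR 2.5.2b, Salmon 0.11.3, DESeq 1.22.2 and DESeq2, with the mouse build mm9; the role of each, the annotation and the strand setting are not stated. The authors deposited variance-stabilised log2 values from 6.90 to 18.7. In every gene the values of both genotypes add up to one sum in replicate 1 and replicate 2 (to 1.31e-13), so the values had been centred on the replicate number, which pairs the libraries.

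Genes at least 1 above the lowest value in at least 2 libraries were tested (10857) with limma 3.58.1 in R 4.3.3: genotype with a replicate block (1 residual degree of freedom; prior degrees of freedom 14.6), trended prior variance, two-sided p-values, and Benjamini-Hochberg adjustment over all genes tested. With 2 pairs most of the precision is borrowed from other genes. Normalised counts were recovered by inverting the variance stabilisation from its floor of 6.98. They are approximate, since the values were already centred, and they sum to between 13.5 and 13.9 M per library; the raw depth is not known. The steps were tested on simulated data. The planted changes were larger than the called differences of the 10 genes, and in a smaller share of genes than were called here. How well differences of the size seen in the 10 genes are recovered was not tested. The genes and lists were chosen with earlier results of these data known. Genes named are the 10, Nfe2l2, all CDK inhibitor, pocket protein, E2F and DP genes, Ccne1, Ccne2, Ccna2, Cdk2, and the 3 called genes with the largest difference in each other list. Promoters are from RefSeq. Protein sequences were not analysed here.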

Additional observations from a re-analysis of the deposited data

How the results depend on the processing

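Besides the fit described, 12 alternatives were run: no replicate block, no filter, a stricter filter (2 above the lowest value), median centring, quantile normalization, robust empirical Bayes, no mean-variance trend, the log2 of the recovered count plus 1, and leaving out each of the 4 libraries. The last used genotype alone on values already centred, so its precision is overstated. It also assumed that a lone library varies like the other genotype. Ccnd2, Rb1, Cdkn2a, Cdk4 and Cdkn1b kept their direction and call in all 12. Ccnd1 kept its direction in all 12 and its call in 11. Without the replicate block 5 of the 10 genes were called lower instead of 3, and 6004 genes in all were called instead of 4388. That fit counts a degree of freedom that the centring had used up. Among the genes named and run, leaving out the block changed the call of Ccnd1, Cdk6, Cdkn2b, Rbl2, E2f5, E2f8, Cdca7, Kdm5d and Krt14 and no other. Leaving out 1 library gave 6 to 7 of the 10 called, with 3 to 4 higher, and 5008 to 5463 genes called in all. The sign of 4 genes that were not called turned. Leaving out 1 library gave -0.11 to 0.021 for Cdkn1a, -0.0022 to 0.0023 for E2f3 and -0.023 to 0.015 for E2f6. E2f3 was at -0.018 after median centring and -0.014 after quantile normalization, and E2f4 at -7e-04 and -0.0061. The cause of these changes was not tested. Under the stricter filter Cdkn1c, Cdkn2d, E2f2 and E2f5 were not tested, which takes a call from each of 2 lists. A 2-pair exact test cannot give a two-sided p under 0.5, so every call rests on the spread pooled over genes.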

Other observations

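The 3 genes of the 10 that were called higher differed more in replicate pair 2, as did all 6 cyclin D1 inducers called higher. Ccnd1 differed by 0.12 in pair 1 and 0.35 in pair 2, Rb1 by 0.29 and 0.46, and Ccnd2 by 0.40 and 0.47. E2f1, which was not called, went the other way, with 0.16 and 0.03. Fosl1 differed by 1.08 and 1.70, Fos by 0.90 and 1.40, Myc by 0.80 and 1.17, and Jun, named after its value was seen, by 0.41 and 0.84. Ets2 differed by 0.16 and 0.31 and Egr1 by 0.58 and 0.66, both also named after their values were seen. Among all genes called higher, 71.8% had the larger difference in pair 2, and among all called lower 58.8%. The falls of Cdkn2a (-0.47 and -0.49) and Cdkn1b (-0.19 and -0.18) were nearly equal in both pairs, and those of Cdk4 were -0.23 and -0.26. The pattern was noticed in these data and was not tested.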
